A study of Homo sapiens with 8 samples.

Results

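A group of 7 genes tied to glucocorticoid signalling were followed in the human glioblastoma line U-87MG, which is long established in culture: FKBP5, TSC22D3, PER1, SGK1, DUSP1, ERRFI1 and NR3C1. They were taken by exact gene symbol from the array's annotation. All 7 were found, each on 1 row, among 11822 genes with a row of their own. Treated cells received 50 µM indole-3-carboxaldehyde (I3CA), an indole aldehyde that derives from tryptophan and is listed by the submitters with ligands of the aryl hydrocarbon receptor (AHR), for 24 h, on 4 arrays. Control cells received the solvent DMSO for the same time, on 4 arrays. Both groups were unmodified U-87MG cells in phenol-red free medium with fetal bovine serum. The labels name no glucocorticoid among the agents, so the genes were read without an added hormone. Any hormone in the serum was not measured. The group was chosen by its link to FKBP5, which was selected on its I3CA minus DMSO difference and unadjusted p in this same comparison, as 1 of the genes leading the lower direction. Differences between I3CA and DMSO in the 7 genes are therefore given as a description, with no test.

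The glucocorticoid receptor, encoded by NR3C1, waits in the cytosol in a complex with the chaperone HSP90 and its partners. When it binds cortisol or a synthetic steroid it moves to the nucleus, where it binds response elements in DNA and raises some genes while holding down many inflammatory ones. FKBP5 is among the genes it raises most widely, and its product FKBP51 is an HSP90 co-chaperone that lowers the receptor's affinity for hormone, which closes a short feedback loop. AHR is likewise held by HSP90 in the cytosol until a ligand binds.

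FKBP5 is transcribed from more than 1 start. Its promoter windows, 250 bases before to 50 after each start annotated by RefSeq on GRCh38.p14, are shown because FKBP5 is the gene the description turns on. Both are written 5′ to 3′ along the minus strand, from which the gene is read. Capitals in the first mark AGAACA, the half-site of a glucocorticoid response element. Capitals in the second mark GCGTG, the core of the element bound by AHR.
FKBP5, chr6:35728534-35728833: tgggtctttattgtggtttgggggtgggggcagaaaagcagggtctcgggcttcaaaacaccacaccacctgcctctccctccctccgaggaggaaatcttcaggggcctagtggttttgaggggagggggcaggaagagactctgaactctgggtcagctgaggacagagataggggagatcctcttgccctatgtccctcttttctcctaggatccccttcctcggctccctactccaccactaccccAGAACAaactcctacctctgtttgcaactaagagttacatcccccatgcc
FKBP5, chr6:35688866-35689165: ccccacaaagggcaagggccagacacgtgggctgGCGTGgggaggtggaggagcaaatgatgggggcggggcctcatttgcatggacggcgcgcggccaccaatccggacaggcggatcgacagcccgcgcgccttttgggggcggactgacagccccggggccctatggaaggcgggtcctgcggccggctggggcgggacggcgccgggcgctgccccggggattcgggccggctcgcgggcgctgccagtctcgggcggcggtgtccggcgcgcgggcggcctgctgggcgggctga
The half-site lay at the annotated start in the first window. The AHR core lay at -216 from the start in the second. RefSeq gave 19 such windows for the 7 genes. Some of the windows of TSC22D3 and NR3C1 overlap. The palindromic element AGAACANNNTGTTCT, which joins 2 half-sites, was in 0 of the 19 and in 1 of all 35116 windows (0.00285%). Its looser form GNACANNNTGTNC was in 0 of the 19 and in 0.39% of all windows. The half-site, searched on both strands, was in 2 of the 19, 1 for FKBP5 and 1 for SGK1, and in 14.8% of all windows. The AHR core, on both strands, was in 9 of the 19, spread over FKBP5, TSC22D3, PER1, SGK1 and NR3C1, and in 36.5% of all windows. A match of letters is no binding site, and the well-studied hormone-responsive elements of FKBP5 lie in its introns, outside these windows.

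Expression was read as log2 values made by the authors with RMA, which corrects background, brings the arrays to 1 distribution and gives 1 value per probe set. On this scale a difference of 1 is a doubling. The array medians ran from 8.80 to 8.83 over 13486 rows. Any 2 arrays correlated across genes at 0.956 to 0.974. The arrays numbered 4 in both groups shared deviations (correlation 0.322 across genes, against 0.0368 to 0.0667 for the numbers 1 to 3). No detection measure came with the values, so a row does not show that its gene is expressed, and levels of different genes are not set against each other. For the same reason the cell line could not be checked by level. Of 9 glioma and mesenchymal markers 6 had a row (VIM, CD44, FN1, NES, GFAP and CHI3L1), with differences of 0.02 to 0.11. Of 9 markers of other cell types 6 had a row, with differences of -0.28 to 0.08. The labels call the arrays of a group biological replicates without naming separate cultures, and any p below then measures the spread between these samples.

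FKBP5 (probe set 17018498) had the most separated values of the 7 genes. Its log2 expression was 8.53, 8.59, 8.52 and 8.41 with I3CA, against 8.80, 8.91, 8.94 and 8.94 with DMSO. Every I3CA array lay below every DMSO array, and the gap between the closest arrays of the groups was 0.22. The means were 8.51 ± 0.07 with I3CA and 8.90 ± 0.06 with DMSO (SD, n = 4 each), a difference of -0.39 ± 0.08 (SE of the limma fit), or 0.77 times the DMSO level. In RNA from whole cultures, fewer cells with the transcript and less of it per cell cannot be told apart. Of the 11822 genes, 43 had a lower difference, a rank that the selection of FKBP5 on this difference favours. Only 5.49% of genes had a smaller spread within groups than FKBP5. The difference was -0.42 to -0.35 when any 1 array was left out and -0.34 without both arrays numbered 4. The selection of FKBP5 on its unadjusted p favours a small spread and a stable difference, so neither is separate support. Over all genes, limma called 0 lower (0%) and 1 higher (0.00846%) at an adjusted p under 0.05. FKBP5 was therefore not a called gene. Groups without overlap were seen in 0.956% of genes in the lower direction and 0.964% in the higher one. Among the 7 genes this held for FKBP5 alone, a count that the choice of FKBP5 fixed.

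**Figure D1:**
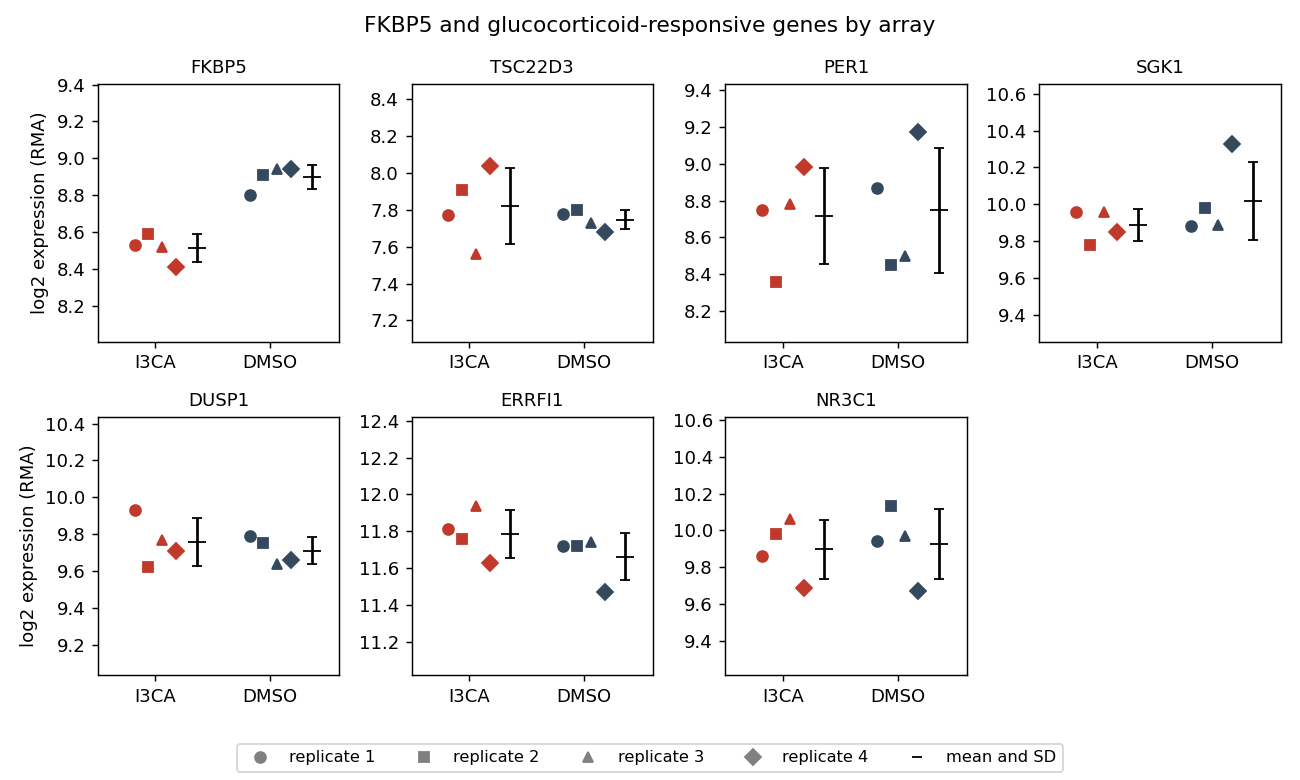
Log2 expression (RMA) of the 7 genes on each array, with I3CA in red left of DMSO in dark grey; marker shapes give the replicate number, and the bar beside each group is its mean and SD (n = 4). The I3CA arrays of FKBP5 lie at 8.41 to 8.59, below the DMSO arrays at 8.80 to 8.94, while the groups overlap in the other genes.

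NR3C1 (probe set 17001102), the receptor gene itself, had values of 9.86, 9.98, 10.06 and 9.69 with I3CA and 9.94, 10.13, 9.97 and 9.67 with DMSO. The ranges nearly coincided, and replicate 4 was the lowest array in both groups. The means were 9.90 ± 0.16 with I3CA and 9.93 ± 0.19 with DMSO (SD, n = 4 each), a difference of -0.03 ± 0.12 (SE). It ran from -0.11 without DMSO replicate 4 to 0.04 without I3CA replicate 4, so its sign rests on single arrays.

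The classic induced genes TSC22D3 and PER1 gave overlapping groups. Both rows, like that of FKBP5, were dropped by a filter at the median brightness, and their expression in these cells is not shown. TSC22D3 (probe set 17113149) encodes GILZ, a leucine zipper protein that carries part of the anti-inflammatory action of glucocorticoids. Its values were 7.77, 7.91, 7.56 and 8.04 with I3CA, against 7.78, 7.80, 7.73 and 7.68 with DMSO. The DMSO arrays lay inside the I3CA range, and the spread was 0.20 with I3CA and 0.06 with DMSO (SD, n = 4 each). The difference of 0.07 ± 0.10 (SE) came to -3.78e-04 without I3CA replicate 4, the highest array. PER1 (probe set 16840852), a repressor in the circadian clock, had values of 8.75, 8.36, 8.78 and 8.98 with I3CA and 8.87, 8.45, 8.50 and 9.17 with DMSO. Replicate 4 was highest in both groups and replicate 2 lowest, and the ranges overlapped over most of their length. The means were 8.72 ± 0.26 with I3CA and 8.75 ± 0.34 with DMSO (SD, n = 4 each), a difference of -0.03 ± 0.17 (SE). PER1 varied most of the 7 within groups, and 91.9% of all genes had a smaller residual SD.

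The next 3 genes encode proteins that act on kinase signalling. SGK1 (probe set 17023811), a kinase that keeps sodium channels at the cell surface by phosphorylating the ubiquitin ligase NEDD4L, had values of 9.96, 9.78, 9.96 and 9.85 with I3CA. With DMSO it had 9.88, 9.98, 9.89 and 10.33. DMSO replicate 4 stood above the other 7 arrays, which lay between 9.78 and 9.98. The difference of -0.14 ± 0.11 (SE) became -0.03 without that array and -0.02 without both arrays numbered 4.

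DUSP1 (probe set 17002847), a phosphatase that switches off the MAP kinases p38 and JNK, had values of 9.93, 9.62, 9.77 and 9.71 with I3CA. With DMSO it had 9.79, 9.75, 9.64 and 9.66, all inside the I3CA range. Its difference was 0.05 ± 0.09 (SE), and -0.01 without I3CA replicate 1. ERRFI1 (probe set 16681306), whose product MIG6 inhibits the EGF receptor, had values of 11.81, 11.76, 11.94 and 11.63 with I3CA and 11.72, 11.72, 11.74 and 11.47 with DMSO. DMSO replicate 4 was apart from the other DMSO arrays, and the lowest I3CA array lay below 3 of the 4 DMSO arrays. The difference was 0.12 ± 0.10 (SE), the highest of the 7. It was 0.06 without DMSO replicate 4 and 0.11 without both arrays numbered 4.

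Of the group as a whole, 3 of the 7 genes had a higher mean with I3CA, and the median difference was -0.03, against -0.01 over all genes, of which 46.6% had a higher mean. ERRFI1 and NR3C1 had their lowest array in replicate 4 of both groups, and PER1 its highest. Across all genes, replicate 4 was the lowest array of both groups in 12.2% and the highest in 11.7%. Array number moved with these 3 genes in both groups, and its part in their differences was not tested.

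**Figure D2:**
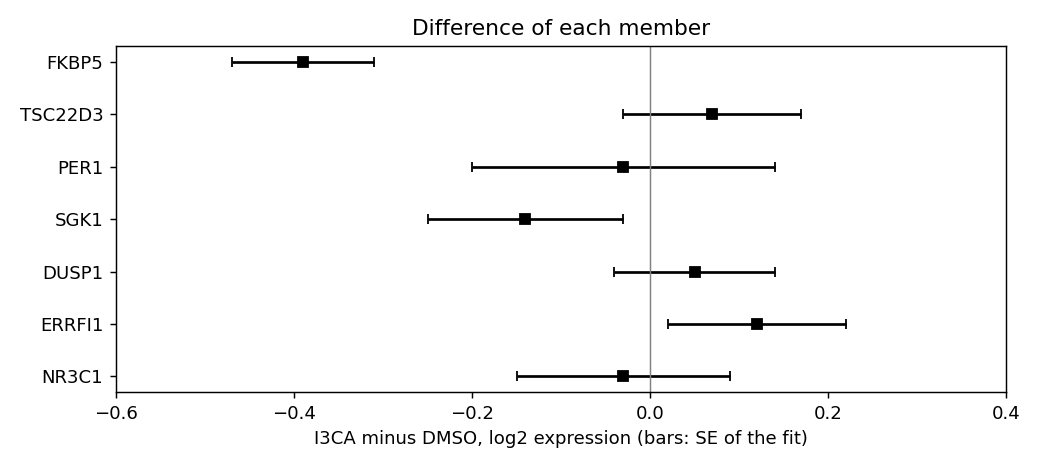
I3CA minus DMSO on the log2 scale for each of the 7 genes, with bars for the SE of the limma fit (n = 4 arrays per group). FKBP5 lies at -0.39, and the other genes lie between -0.14 and 0.12.

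Other genes reported to be raised by glucocorticoids gave no called change. Of 53 listed, 31 had a row of their own; 12 had a higher mean with I3CA, and the median difference was -0.03. In limma 0 of 31 passed in either direction at an adjusted p under 0.05, and the smallest adjusted p of any gene on the pathway lists was 0.9999. At an unadjusted p under 0.05, 3 of the 31 were higher and 0 lower, where 1.74% of all genes were higher and 1.42% lower. These 3 were THBD, ADAMTS1 and IGFBP1, which differed in the direction opposite to FKBP5.

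THBD, the thrombin receptor thrombomodulin, had values of 8.26, 7.94, 8.04 and 8.03 with I3CA and 7.60, 7.93, 7.51 and 7.74 with DMSO. The lowest I3CA array at 7.94 lay just above the highest DMSO array at 7.93, and the difference was 0.37 ± 0.11 (SE; limma adjusted p = 0.9999). IGFBP1, which binds insulin-like growth factors, had 9.63, 9.22, 9.64 and 9.07 with I3CA against 9.23, 8.82, 9.09 and 8.50 with DMSO. Its groups overlapped, and the difference was 0.48 ± 0.18 (SE). ADAMTS1, a secreted protease, averaged 10.00 ± 0.10 with I3CA and 9.78 ± 0.08 with DMSO (SD, n = 4 each), with no overlap. Its difference was 0.23 ± 0.08 (SE). Further members of the list lay close to 0, among them the anti-inflammatory regulators NFKBIA at -0.01, ZFP36 at 0.03 and TNFAIP3 at -0.07, and the metallothionein MT2A at -0.02. These 4 were named after their values were seen.

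Genes that glucocorticoids hold down had a median difference of 0.15, with 13 of 16 measured genes at a higher mean with I3CA, against a median of -0.01 and 46.6% of all genes. The list was chosen with earlier results of these data known, so the count is a description. Genes on it that vary together are not separate observations. In limma 0 of 16 passed in either direction. At an unadjusted p under 0.05, 1 was higher and 0 lower, where 1.74% of all genes were higher and 1.42% lower. In 7 of the 16 (LIF, IL1B, PTGS2, IL8, IL6, IL11 and ICAM1) replicate 4 was the lowest array of both groups, against 12.2% of all genes. The median was 0.13 and 12 of 16 were higher without both arrays numbered 4, and it was 0.08 with 10 of 16 higher without DMSO replicate 4. The 1 gene was MMP1, an interstitial collagenase, at 9.27, 9.70, 9.38 and 9.51 with I3CA and 8.28, 8.92, 8.54 and 9.18 with DMSO. Its groups did not overlap, and the difference was 0.73 ± 0.18 (SE; limma adjusted p = 0.9999). LIF, a cytokine of the interleukin-6 family, differed by 0.45 ± 0.25, and the proinflammatory cytokine IL1B by 0.64 ± 0.37 (SE). Both overlapped between groups. With array number as a block in the fit the SE was 0.08 for LIF and 0.07 for IL1B, and neither was called. Without DMSO replicate 4 the difference was 0.26 for LIF and 0.33 for IL1B, and without I3CA replicate 4 it was 0.68 for LIF and 0.96 for IL1B. With both arrays numbered 4 left out it was 0.48 for LIF and 0.65 for IL1B, close to the values over all arrays.

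**Figure D3:**
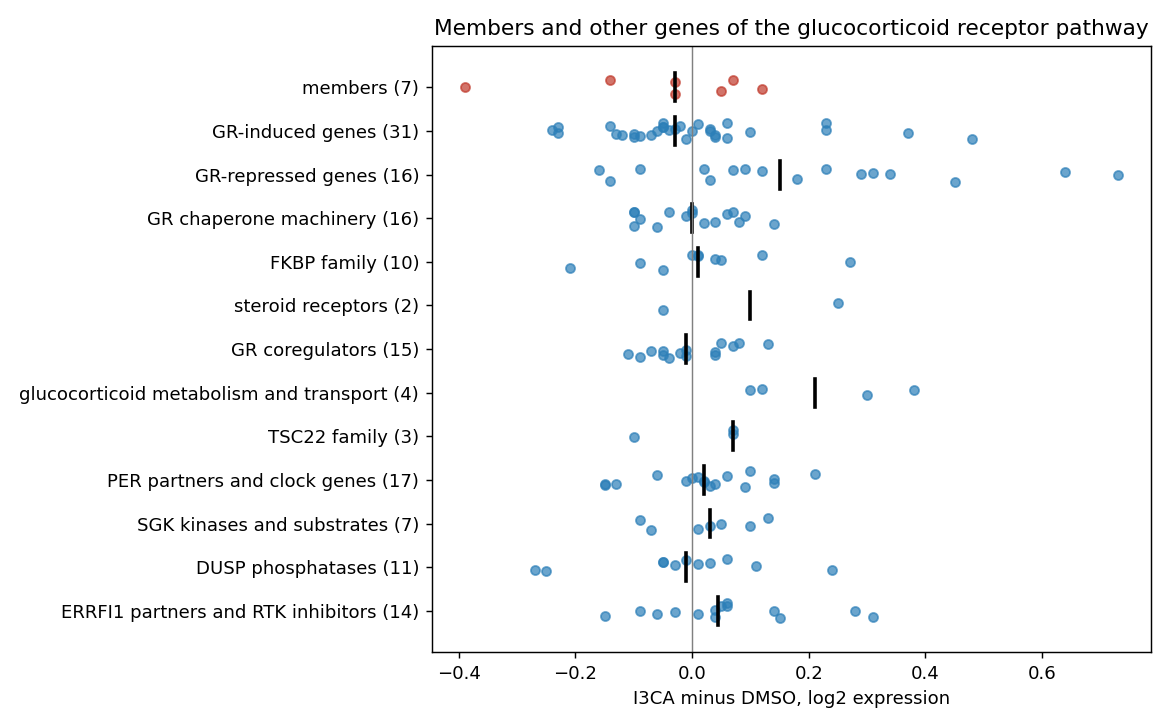
I3CA minus DMSO on the log2 scale for the 7 genes (red, labelled members) and for the measured genes of each pathway list (blue, number of genes in brackets, GR for glucocorticoid receptor); black bars are medians. Most points lie near 0, and the repressed genes have a median of 0.15.

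The chaperone machinery of the receptor gave no called change. Of 24 listed genes 16 were measured, and their differences ran from -0.10 to 0.14 with a median of 0.00. In limma 0 of the 16 passed, where 1 of all 11822 genes did. At an unadjusted p under 0.05 there were 0, where 1.74% of all genes were higher and 1.42% lower. In 1 of the 16 the groups did not overlap, where 0.964% of all genes were so in the higher direction. It was STUB1, at 9.54 to 9.61 with I3CA and 9.46 to 9.53 with DMSO. HSP90AA1, an HSP90 gene, had values of 12.60, 12.73, 12.63 and 12.54 with I3CA and 12.53, 12.72, 12.63 and 12.61 with DMSO, a difference of 0.00 ± 0.08 (SE). The kinase co-chaperone CDC37 had a difference of 0.14 ± 0.09 and the HSP40 gene DNAJB1 one of -0.10 ± 0.09 (SE).

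FKBP4 encodes FKBP52, the relative of FKBP51 that favours receptor activity. It had values of 9.87, 10.24, 10.00 and 9.76 with I3CA and 9.94, 10.04, 9.91 and 9.83 with DMSO. The DMSO arrays lay inside the I3CA range, and the difference was 0.04 ± 0.11 (SE). Across 10 measured relatives in the FKBP family, which share a prolyl isomerase fold, the median difference was 0.01 and 0 passed in limma. FKBP7, a family member of the endoplasmic reticulum, was the 1 of the 10 with an unadjusted p under 0.05, and the 1 without overlap, where 1.42% and 0.956% of all genes were so in the lower direction. It had 8.09, 8.07, 8.10 and 7.93 with I3CA and 8.34, 8.13, 8.19 and 8.38 with DMSO, a difference of -0.21 ± 0.09 (SE). FKBP11, also of the endoplasmic reticulum, differed by 0.27 ± 0.13 (SE) with overlapping groups.

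Receptor partners and steroid handling gave no called gene in limma. The 15 measured coregulators had differences of -0.11 to 0.13 (median -0.01). At an unadjusted p under 0.05 there were 0, where 1.74% of all genes were higher and 1.42% lower. The coactivator NCOA3 stood at 0.13 ± 0.10 and the corepressor NCOR1 at 0.08 ± 0.09 (SE). Of 6 related receptors 2 had a row, ESR1 at 0.25 ± 0.13 and ESRRA at -0.05 ± 0.09 (SE). Only 4 of 13 genes of glucocorticoid metabolism and transport had a row, all with a higher mean with I3CA, as had 46.6% of all genes. SRD5A1, a steroid 5-alpha reductase, was the 1 of the 4 with an unadjusted p under 0.05, where 1.74% of all genes were higher at that p. It had 8.94, 8.45, 8.75 and 8.89 with I3CA and 8.55, 8.23, 8.44 and 8.31 with DMSO. Its groups overlapped through I3CA replicate 2, and the difference was 0.38 ± 0.12 (SE; limma adjusted p = 0.9999). AHR differed by 0.08 ± 0.09 (SE).

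Relatives and partners of the remaining genes were looked at in the same fit, where 0 passed. The 3 relatives of TSC22D3 differed by -0.10 to 0.07. Among 17 clock genes around PER1 the differences ran from -0.15 to 0.21 (median 0.02), led by NPAS2 at 0.21 ± 0.11 and its relative CLOCK at 0.14 ± 0.08 (SE), the partners of BMAL1. Among 7 kinases and substrates around SGK1 they ran from -0.09 to 0.13, with NEDD4L at 0.13 ± 0.09 (SE). The 11 other DUSP phosphatases ran from -0.27 (DUSP9) to 0.24 (DUSP6, which acts on ERK), with a median of -0.01. Without DMSO replicate 4, DUSP6 was at 0.12, DUSP9 at -0.16 and NEDD4L at 0.07, and without I3CA replicate 1 NPAS2 was at 0.14. Without I3CA replicate 2, DUSP9 was also at -0.16.

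Of 14 measured partners of ERRFI1 and other inhibitors of receptor tyrosine kinases, 10 had a higher mean with I3CA (median 0.05), and 1 of the 14 had an unadjusted p under 0.05, where 1.74% of all genes were higher at that p. That 1 was SPRY4, a feedback inhibitor of growth factor signalling, which had 8.92, 8.92, 8.93 and 8.98 with I3CA and 8.68, 8.62, 8.51 and 8.80 with DMSO. Its groups did not overlap, and the difference was 0.28 ± 0.08 (SE; limma adjusted p = 0.9999). SPRY2 differed by 0.15 ± 0.08 and EGFR, the receptor that MIG6 inhibits, by 0.14 ± 0.09 (SE). Over all pathway lists, 145 of 213 genes were measured, 83 of them (57.2%) with a higher mean, against 46.6% of all genes. Groups without overlap were seen in 5 of the 145 in the higher and 1 in the lower direction, where 0.964% and 0.956% of all genes were apart. These counts too are a description, because the lists were chosen with earlier results of these data known.

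**Figure D4:**
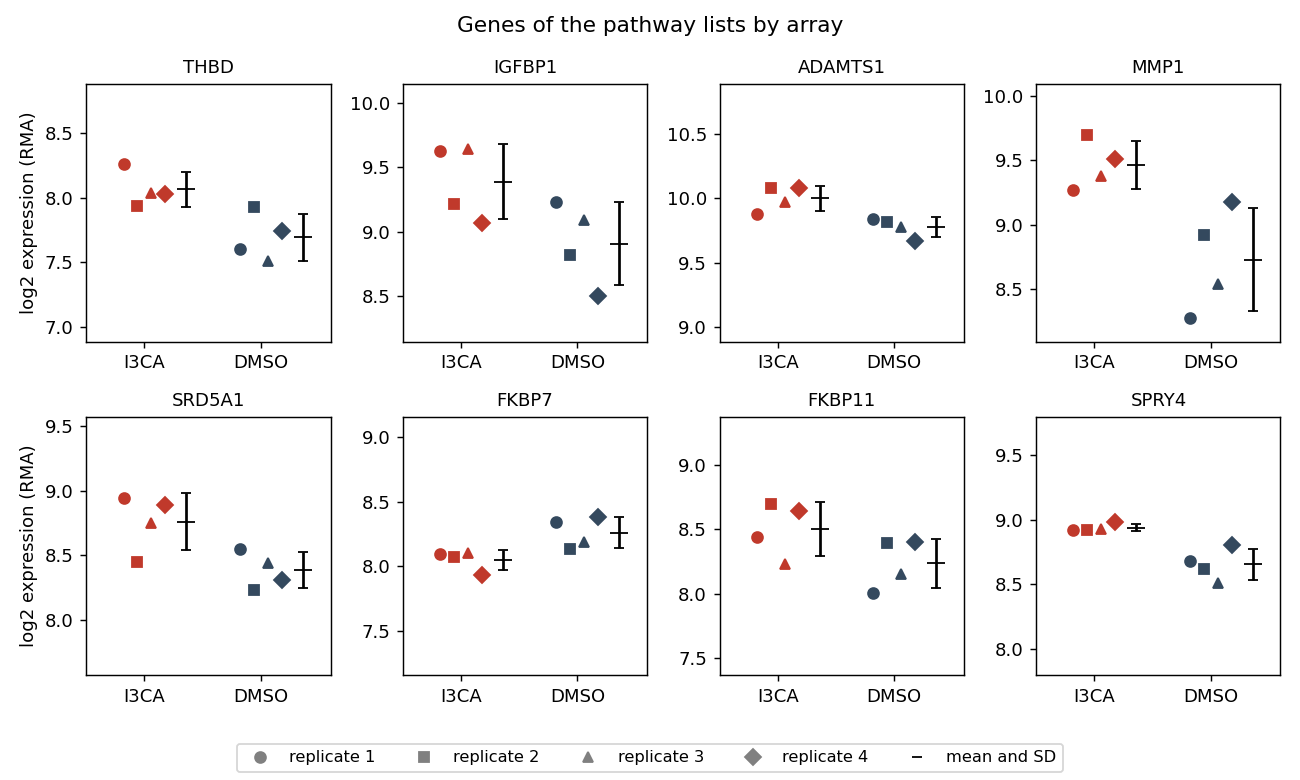
Log2 expression (RMA) on each array for 8 genes of the pathway lists, I3CA in red left of DMSO in dark grey; marker shapes give the replicate number, and bars are mean and SD (n = 4). THBD, ADAMTS1, MMP1 and SPRY4 lie higher with I3CA without overlap and FKBP7 lower, and the groups of IGFBP1, SRD5A1 and FKBP11 overlap.

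The genes whose values over the 8 arrays were most like those of FKBP5 were RBFOX1, a splicing factor gene (Pearson r = 0.96, Spearman rho = 0.83), and CRYBA4, a lens crystallin gene (r = 0.96, rho = 0.95). TSTA3, an enzyme of GDP-fucose synthesis (r = 0.96, rho = 1.00), NSL1, a kinetochore gene (r = 0.95, rho = 0.83), and TRPM8, a cold-sensing channel (r = 0.95, rho = 0.88), followed. In all 5 the I3CA arrays lay below the DMSO arrays, by mean differences of -0.39 to -0.16, so the likeness follows the split of the groups. Without the 2 arrays in which FKBP5 was farthest from its median, r was 0.94 to 0.99, with the split of the groups still present. With group means removed, the 5 most alike were FUT10, GPR126, SLC12A5, SLC25A34 and HBEGF, at r of 0.96 to 0.98 over 8 arrays. Without the 2 arrays farthest in that measure, their r was 0.85 (GPR126) to 0.97 (FUT10). None of the other 6 genes of the group was close to FKBP5 in that measure over 8 arrays, where r ran from -0.49 (PER1) to 0.27 (SGK1). Without the same 2 arrays their r ran from -0.73 (DUSP1) to 0.63 (TSC22D3), so these values rest on few arrays. The 10 were picked as the highest among all genes, so no p is given for them.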

How the data were processed

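The authors deposited 1 table of log2 expression values for 8 arrays of biotin-labelled cDNA (13486 probe sets). The submitters' processing notes name oligo and RMA and give no version. Genome build and any row filter are not given in the sources used here. Symbols were those of the platform annotation held by GEO: 11850 rows had 1 symbol, 657 several and 979 none listed. The brightest row by mean stood for a gene, leaving 11822. The model for these log2 values used limma 3.58.1 (R 4.3.3), with lmFit and eBayes, two-sided, over 8 arrays and without covariates and with Benjamini-Hochberg adjustment over all genes and a threshold of 0.05. No filter on low values was applied, so all 7 members entered. The fit was tested on simulated data.

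The members and the lists of pathway genes were chosen with earlier results of these data known, and list genes were taken by role. Up to 3 genes per list with the smallest unadjusted p were named, with HSP90AA1, FKBP4 and AHR, and the 5 genes most like FKBP5 by each of 2 measures. HSP90AB1 and NR3C2 had no row of their own. Of the pathway genes 2 matched by an older symbol. Promoter windows came from RefSeq (GRCh38.p14). Alternatives were a replicate block, other normalizations, a brightness filter, row averaging, another prior and leaving out arrays. The number of arrays limits the precision. Numbers shared by arrays of both groups were checked as pairs: correlations of deviations were 0.0368, 0.0667, 0.047 and 0.322, all positive. The main fit took no pairs because the labels do not say that the numbers pair the cultures. Its SEs therefore include any spread shared by arrays with the same number.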

Additional observations from a re-analysis of the deposited data

Results flagged for a closer look

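Among 102 groups of 4 arrays, covering the 7 genes and the named pathway genes, 5 held an array that stood well away from its group; chance gives about 5.1 such groups. ERRFI1 was at 11.47 in DMSO replicate 4, with the other DMSO arrays at 11.72 to 11.74. SPRY4 was at 8.98 in I3CA replicate 4, with the others at 8.92 to 8.93. FKBP7 was at 7.93 in I3CA replicate 4, against 8.07 to 8.10. MED14, a Mediator subunit gene, was at 10.04 in I3CA replicate 3, against 10.38 to 10.42. DNAJB1 was at 10.46 in DMSO replicate 3, against 10.65 to 10.69.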

How the results depend on the processing

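Under each of the 15 alternatives limma called 1 gene in all and 0 pathway genes. The FKBP5 difference stayed between -0.42 and -0.34, a stability that its selection on this comparison favours. Its value was -0.39 with the replicate block (SE 0.08). It could not be fitted under the brightness filter, which dropped FKBP5, TSC22D3 and PER1. The other members moved by less than their residual SD, from -0.13 to 0.11 for PER1, -0.02 to 0.16 for TSC22D3, -0.01 to 0.09 for DUSP1 and -0.11 to 0.04 for NR3C1, so these 4 have no settled sign. SGK1 kept its sign (-0.18 to -0.02), as did ERRFI1 (0.06 to 0.17). The replicate block lowered the SE of several genes, among them IL1B to 0.07, IGFBP1 to 0.07, LIF to 0.08 and MMP1 to 0.12. It called none of these (limma adjusted p = 0.3418 for IL1B, 0.4259 for IGFBP1 and MMP1, and 0.5466 for LIF). Over the other alternatives the adjusted p of each was higher. The block changed no other call. Of the 44 named pathway and marker genes, 8 changed sign in at least 1 alternative, all of them uncalled. HSP90AA1 turned under 4 of the single omissions (-0.0329, -3.34e-04, -0.0278 and -0.0028), AIF1 under 2 (-0.0271 and -0.0465) and without both arrays numbered 4 (-0.1568), and each of the other 6 under 1. The cause was not tested. Leaving out 1 array at a time gave -0.6214 to 0.2925 for SYP, -0.0329 to 0.0346 for HSP90AA1, -0.0520 to 0.1075 for FKBP4, -3.88e-05 to 0.1194 for RBFOX3, -0.0012 to 0.1496 for CD44, -0.0465 to 0.2532 for AIF1, -0.1051 to 0.0036 for ESRRA and -0.0059 to 0.2176 for CHI3L1. Other uncalled differences moved too: NCOA3 to 0.06, NCOR1 to 0.05 and AHR to 0.03 without I3CA replicate 1, DNAJB1 to -0.06 and AHR to 0.13 without I3CA replicate 4, NCOR1 to 0.13 and DUSP8 to -0.15 without DMSO replicate 1, ESR1 to 0.16 without DMSO replicate 2, and NCOR1 and AHR to 0.03 without DMSO replicate 4. Microarrays tend to understate changes of dim genes, and no detection measure came with these values. The 4 arrays per group also limit what can be told apart.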
